A study of Mus musculus with 4 samples.

Results

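Immediate early genes are genes that a cell transcribes within minutes of a stimulus without making new protein first, and stress response genes are transcribed after heat, damage or misfolded protein. The 36 genes described here belong to both kinds, and each was taken by its symbol from the 32285 genes of the count matrix. All 36 were found. They were divided into 8 AP-1 and related bZIP factors, 3 Egr zinc fingers, 3 Nr4a nuclear receptors, 3 Klf zinc fingers, 4 heat shock genes and 15 feedback and other response genes.

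The cells came from collecting lymphatic vessels, which carry lymph by contracting, and from the tissue around them; the C57BL/6J mice (4 male, 4 female) were 12 to 14 weeks old and the labels name no treatment or allele. Vessels of 4 anatomical regions were combined for each mouse. The labels describe digestion with papain and then with papain, collagenase and dispase, 30 min each at 37 °C, and droplet capture of cells tagged with an oligonucleotide per mouse, with 1 gene expression library per sex. All cells went through that digestion, and no undigested sample was analysed here. The level that a member had in the mouse and the level it reached during digestion therefore cannot be told apart in any value given here.

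The AP-1 factors (Fos, Fosb, Fosl1, Fosl2, Jun, Junb, Jund and the related Atf3) bind DNA as dimers, Fos proteins with Jun proteins. Signals through MAP kinases switch on Fos and the Egr factors through serum response factor, whereas cAMP and calcium act on Fos and the Nr4a receptors through CREB. Feedback genes of the same wave then shut the response down, among them Dusp1, a MAP kinase phosphatase, Zfp36, which directs AU-rich mRNAs to decay, Socs3, an inhibitor of cytokine receptors, and Nfkbia, the inhibitor of NF-kappaB. Heat shock genes are switched on by HSF1 when unfolded protein accumulates. Klf2 and Klf4 are known in endothelium for their response to flow, Klf2 through MEF2 factors.

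Sequence upstream of the start site is shown for Fos, the Nr4a receptors, the Hsp70 genes and Klf2, because the factors just named act on them and each was at least 2-fold apart between smooth muscle-like and lymphatic endothelial-like cells. The sequences are RefSeq promoters on GRCm38.p6, written 5′ to 3′ over 200 bases that end 51 bases before the start site. Of the 36 members, 29 had a promoter window (34 windows in all, each from 250 bases before to 50 bases after a start site). The other 7, Egr1, Egr3, Fosl1, Hspa8, Ier2, Myc and Cebpd, had no window and were not searched for any motif. In the next 4 sequences the capitals mark TGACG on either strand, the core of the CREB site. They come from Fos (chr12:85473640-85473839, plus strand), Nr4a1 (chr15:101266596-101266795, plus strand), Nr4a2 (chr2:57124054-57124253, minus strand) and Nr4a3 (chr4:48045055-48045254, plus strand).
Fos: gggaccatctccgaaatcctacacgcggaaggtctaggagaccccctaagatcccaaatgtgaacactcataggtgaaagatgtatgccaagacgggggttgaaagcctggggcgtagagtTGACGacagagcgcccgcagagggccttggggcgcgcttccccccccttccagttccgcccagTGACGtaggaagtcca
Nr4a1: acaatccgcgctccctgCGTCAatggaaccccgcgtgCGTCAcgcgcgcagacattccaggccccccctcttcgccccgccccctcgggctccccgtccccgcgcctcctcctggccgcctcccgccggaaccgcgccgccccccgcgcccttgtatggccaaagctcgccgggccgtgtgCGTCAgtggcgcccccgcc
Nr4a2: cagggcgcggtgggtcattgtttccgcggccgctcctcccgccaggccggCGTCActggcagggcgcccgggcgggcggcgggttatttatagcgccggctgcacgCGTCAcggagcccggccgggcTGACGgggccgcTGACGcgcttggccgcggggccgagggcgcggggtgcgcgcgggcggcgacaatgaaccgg
Nr4a3: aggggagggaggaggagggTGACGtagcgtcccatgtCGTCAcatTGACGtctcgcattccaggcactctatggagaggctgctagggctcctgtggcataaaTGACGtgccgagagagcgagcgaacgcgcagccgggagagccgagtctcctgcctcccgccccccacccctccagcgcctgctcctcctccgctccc
The core stood in these stretches 2 times for Fos, 3 times for Nr4a1 and 4 times each for Nr4a2 and Nr4a3. Over the whole windows it was found in 16 of the 29 members and in 52.9% of their windows, against 20.8% of all 32851 windows. The whole palindrome TGACGTCA, which holds the core on both strands, was found for Dusp1, Btg2 and Ppp1r15a only, and in 1.79% of all windows.

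The capitals in the next pair mark GAANNTTC, 2 units of the heat shock element facing each other. They come from the inducible Hsp70 genes Hspa1a (chr17:34972207-34972406, minus strand) and Hspa1b (chr17:34959289-34959488, minus strand), which lie next to each other.
Hspa1a: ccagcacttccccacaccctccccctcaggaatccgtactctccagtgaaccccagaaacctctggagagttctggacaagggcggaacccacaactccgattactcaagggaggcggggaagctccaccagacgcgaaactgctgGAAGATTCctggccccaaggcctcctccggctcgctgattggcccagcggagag
Hspa1b: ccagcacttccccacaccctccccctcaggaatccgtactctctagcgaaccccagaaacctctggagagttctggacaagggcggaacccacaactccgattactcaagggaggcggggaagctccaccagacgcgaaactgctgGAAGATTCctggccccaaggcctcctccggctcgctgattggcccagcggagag
Both carry the match at position -104 from the start site, and the 2 stretches differ at 2 of 200 bases. The motif was found in the windows of 4 members, the others being Jun and Fosl2, and in 7.86% of all windows. The longer element of 3 units, in which the pair is followed by GAA after 2 free bases, was in no member's window and in 0.603% of all windows. In the last sequence, from Klf2 (chr8:72318812-72319011, plus strand), the capitals mark the MEF2 site.
Klf2: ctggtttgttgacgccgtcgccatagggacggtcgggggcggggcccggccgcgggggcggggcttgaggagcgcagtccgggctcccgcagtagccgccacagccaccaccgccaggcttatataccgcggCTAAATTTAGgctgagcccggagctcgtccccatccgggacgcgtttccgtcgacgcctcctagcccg
The MEF2 site was found for Klf2, Jun and Atf3 and in 0.557% of all windows. The CArG box, the site of serum response factor, was found for Zfp36 and Egr2 (1.63% of all windows), and the kappaB site for 6 members, Nfkbia and Ier3 among them (4.51%). The AP-1 site TGANTCA was in no member's window and in 7.81% of all windows. The core of the CREB site, the heat shock pair and the MEF2 site were added to the search after the longer motifs had been counted. A match is a stretch of letters and not a measured site, and its absence here says nothing about the factor.

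The matrix holds 24046 cell barcodes with 232753017 gene UMIs (distinct captured molecules), a median of 8684.5 per barcode. Barcodes carry a suffix from 1 to 8, with 2375 to 3315 barcodes each, which the labels tie to no mouse and to neither sex. The suffixes are therefore treated as unlabelled samples whose lowest, median and highest value is given, the matrix as 1 pooled sample, and no test was made. No barcode was shared among suffixes 1 to 4 or among suffixes 5 to 8, whereas 44 were shared across these sets, and the sets were treated as separate capture wells. After filtering, 22947 cells were left, and 20063 of them were placed in a class by marker genes, none of which is a member. The classes are called fibroblast-like (8457 cells), macrophage-like (6529), smooth muscle-like (1456), mesothelial-like (861), lymphatic endothelial-like (537), dendritic-like (487), ILC2-like (370, group 2 innate lymphoid cells), blood endothelial-like (272), B-like (269), mast-like (236), T-like (230), epithelial-like (161), Schwann-like (89) and NK-like (66). The gate for pericytes held only 13 cells, so the smooth muscle-like class stands for the mural cells.

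In each class the 6 markers of its lineage were found in 20.1% to 100% of cells, and their summed level was the highest of all lineages except in epithelial-like cells. There the mesothelial markers summed to 4559 CPM (UMIs per 1000000 UMIs of the class), against 3786 CPM for the epithelial ones, and nearly all of it was Krt19, with a UMI in 93.8% of epithelial-like cells, while the other 5 mesothelial markers were found in 0% to 4.35%. Fibroblast markers, a gauge of free RNA and of mixed droplets since fibroblast-like cells were the most numerous, summed to 6366 CPM in fibroblast-like cells and to 53.4 to 290 CPM in the others, apart from Schwann-like (706 CPM) and mesothelial-like cells (1148 CPM). Their part in the member levels was not tested. Mast-like cells were shallow, with a median of 1177.5 UMIs.

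The members made up 6.13% of all UMIs in mesothelial-like cells and 0.7998% in B-like cells. Their summed level was 61292 CPM in mesothelial-like cells (95% Poisson interval 61156 to 61428; over 8 suffixes the lowest was 36051, the median 61980 and the highest 69484). Fibroblast-like cells followed with 48897 CPM (48854 to 48941; suffixes 45520.5, 48684 and 53630). That range lies inside the mesothelial-like one, and in suffixes 1 and 5 fibroblast-like cells were the higher (49225 against 44589.7 CPM and 50366 against 36051 CPM), so the order of these classes is not beyond their spread either. These intervals, like all others given here, cover counting error only, and the suffixes spread far more widely than that. Next were blood endothelial-like (43197 CPM), smooth muscle-like (42051), macrophage-like (41050) and lymphatic endothelial-like cells (41210), which held levels whose suffix ranges overlap, so these neighbours do not differ beyond their spread. Schwann-like (36281) and mast-like cells (35355) came next, then ILC2-like (24176), epithelial-like (23395) and dendritic-like cells (20034). Lowest were NK-like (11135 CPM), T-like (9665) and B-like cells (7998). The highest B-like suffix (10864 CPM) and the highest T-like suffix (13714) lay below the lowest suffix of dendritic-like cells (17519).

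**Figure D1:**
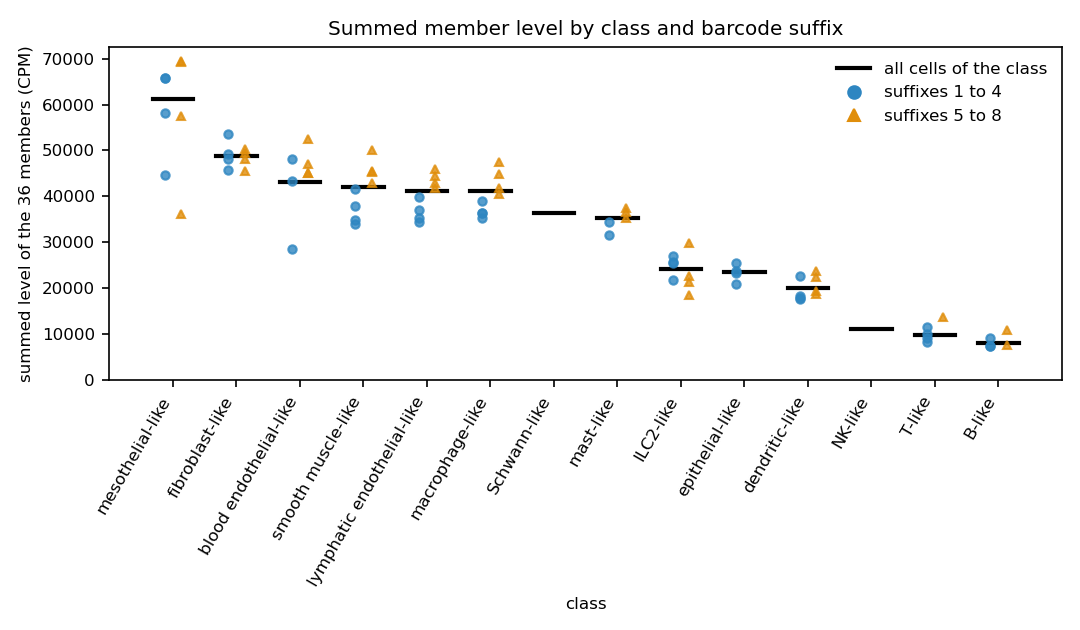
Summed level of the 36 members in each class, in CPM. Black bars are all cells of a class, blue circles are suffixes 1 to 4 and orange triangles suffixes 5 to 8, shown where a suffix held at least 20 cells of the class (none for Schwann-like and NK-like cells). Mesothelial-like cells are highest at 61292 CPM with the widest spread of suffixes, and NK-like, T-like and B-like cells are lowest.

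Expression of the members was broad but unequal. Of the 36, 32 reached 10 CPM in every one of the 14 classes, against 32.7% of the genes that reached it in any class. Among those 32, the highest class stood at least 10-fold over the lowest for 24, against 13.8% of genes expressed that broadly, and the median ratio of highest to lowest class was 22.0, against 3.89 for all such genes. The 4 members outside this group were Fosl1, Egr2, Egr3 and Hspa1b, each under 10 CPM in at least 1 class. Mesothelial-like cells were the highest class for 9 members, smooth muscle-like for 7, fibroblast-like for 5, macrophage-like for 4, mast-like for 3, and ILC2-like and lymphatic endothelial-like for 2 each. Schwann-like, blood endothelial-like, dendritic-like and epithelial-like cells each led for 1. How often each class leads over all genes was not counted, so these counts cannot be read as particular to the members.

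**Figure D2:**
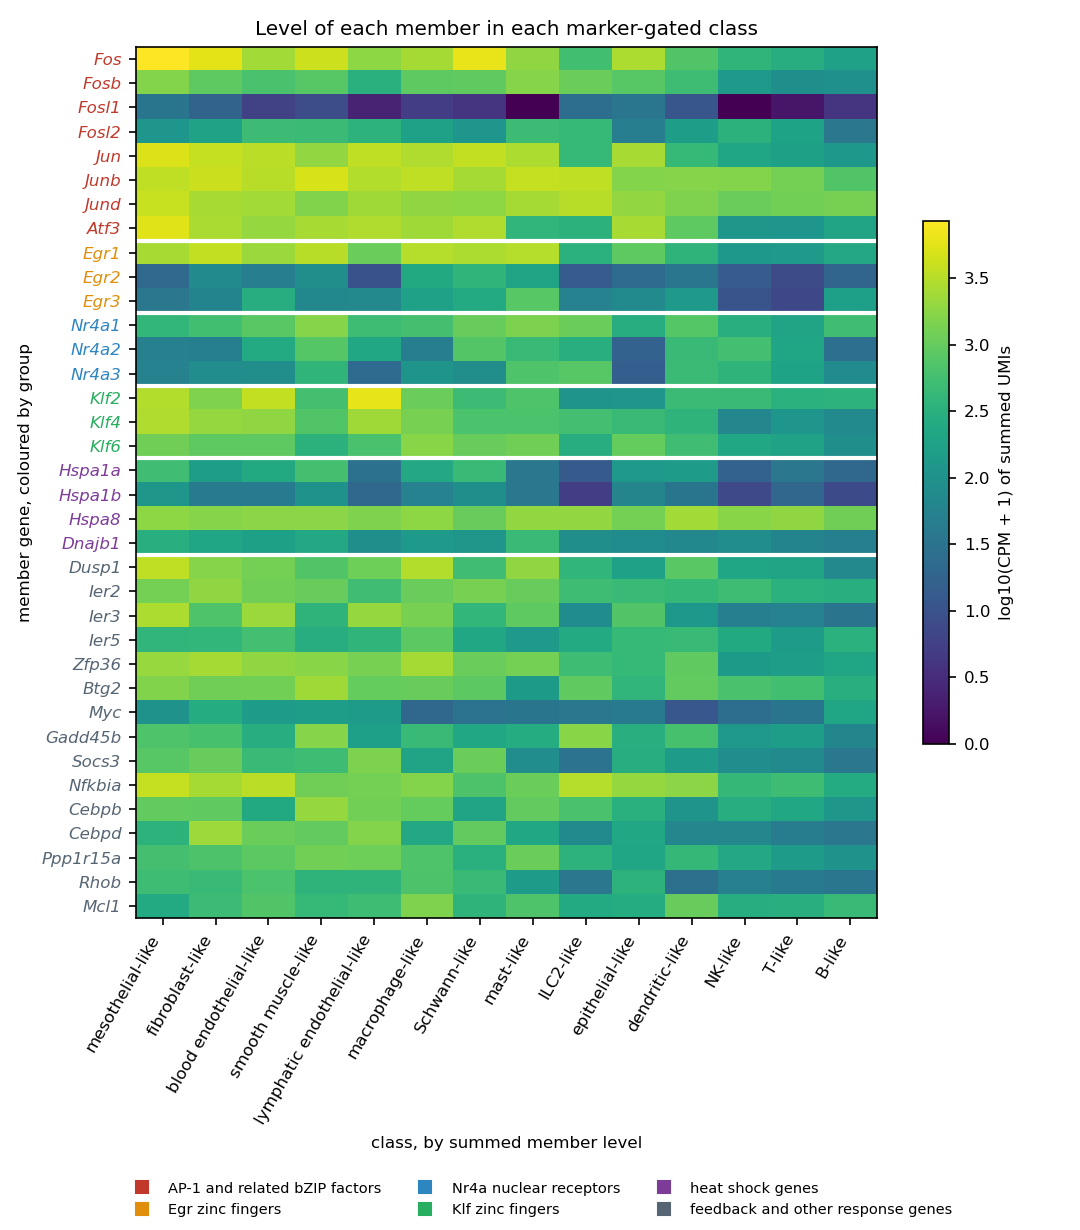
Level of each member (rows, coloured by group and divided by white lines) in each class (columns, ordered by summed level), as log10(CPM + 1) of summed UMIs. The AP-1 rows are bright from mesothelial-like to macrophage-like cells and dark in NK-like, T-like and B-like cells. Hspa8 is nearly even, and Klf2 is brightest in lymphatic endothelial-like cells.

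Among the AP-1 group, Fos reached 8507 CPM in mesothelial-like cells, its highest class (suffixes 5695, 8229 and 10107), followed by Schwann-like (6362) and fibroblast-like cells (5958). The fibroblast-like level lies inside the mesothelial-like suffix range, and Schwann-like cells had no suffix value. The lowest Fos level was 174 CPM in B-like cells, 48.9-fold under mesothelial-like cells, and the suffix ranges of mesothelial-like and B-like cells do not meet. Jun, the main partner of Fos, was also highest in mesothelial-like cells (5344 CPM) and lowest in B-like cells (124), a ratio of 43.2. Atf3, a repressor induced by many stresses, showed the same highest class (5389 CPM), with T-like cells lowest (117) and a ratio of 46.1. Fosb was highest in mast-like cells (1632 CPM), where its interval overlaps that of mesothelial-like cells, and lowest in T-like cells (91.2). Fosl2 was about level in blood endothelial-like (493 CPM) and mast-like cells (493) and lowest in B-like cells (35.4). Junb, which can take the place of Jun in dimers, was highest in smooth muscle-like cells (4915 CPM) and lowest in B-like cells (729.6). Jund, known as the most constant Jun protein, spanned only 3.55-fold, from 3936 CPM in mesothelial-like to 1108 in NK-like cells. Fosl1 was scarce everywhere, at most 34.2 CPM in epithelial-like and 33.1 in mesothelial-like cells, whose intervals overlap, and had no UMI in mast-like or NK-like cells, where 3 counts would be 9.07 and 9.61 CPM.

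Of the Egr factors, Egr1 was highest in fibroblast-like cells (3712 CPM, suffixes 2983, 3516 and 4485), with smooth muscle-like (3195), mast-like (3150) and macrophage-like cells (3099) next, and lowest in NK-like cells (125). Egr2, which drives myelination in Schwann cells, was highest in Schwann-like cells (368 CPM), then in macrophage-like cells (243), and lowest in T-like cells (6.84 CPM, 9 UMIs). Egr3 peaked in mast-like cells at 822 CPM, ahead of blood endothelial-like cells (279.9), and was down to 6.08 CPM in T-like cells (8 UMIs), the widest ratio of all members at 135.

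The Nr4a receptors, orphan nuclear receptors that act without a known ligand, did not follow the AP-1 order. Nr4a1 was highest in smooth muscle-like cells at 1616 CPM (suffixes 1484, 1565 and 1775) and lowest in T-like cells (195). Nr4a2 was highest in smooth muscle-like (783 CPM) and Schwann-like cells (758), whose intervals overlap, and lowest in epithelial-like cells (16.5). Nr4a3 led in ILC2-like (799 CPM) and mast-like cells (698), again with overlapping intervals, and was lowest in epithelial-like cells (13.7). In mesothelial-like cells, where the AP-1 group was 2.47-fold over the mean of the other classes, the Nr4a group was 2.62-fold under it.

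The Klf factors divided by member. Klf2 was highest in lymphatic endothelial-like cells: 6066 CPM in all (suffixes 4342, 5433 and 7534), then in blood endothelial-like cells (3734), and lowest in ILC2-like cells (106). Klf4 was highest in mesothelial-like (2854 CPM) and lymphatic endothelial-like cells (2310) and lowest in NK-like cells (64.1). Klf6 was highest in macrophage-like cells (1673 CPM) and lowest in B-like cells (91.2).

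The heat shock group held the most even member and also Hspa1a, whose ratio was above the median of 22.0 given earlier. Wider ratios than that of Hspa1a were found outside the group. Hspa8, the constitutive Hsc70 chaperone, ranged only 2.30-fold, from 2388 CPM in dendritic-like to 1037 in Schwann-like cells. Hspa1a was highest in smooth muscle-like (598 CPM) and mesothelial-like cells (528) and lowest in ILC2-like cells (12.1), a ratio of 49.4. Hspa1b was highest in mesothelial-like (120 CPM) and smooth muscle-like cells (98.8) and lowest in ILC2-like cells (4.19 CPM, 9 UMIs). Dnajb1, a co-chaperone of Hsp70, was highest in mast-like cells (444 CPM) and lowest in B-like cells (48.6). The transcripts of Hspa1a and Hspa1b share 58.8% and 62.3% of their stretches of 50 bases but none of the last 500 stretches, so their values are uncertain to the extent that reads fell outside the 3′ end.

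Of the 15 feedback and other response genes, mesothelial-like cells led for Dusp1 (3593 CPM), the apoptosis-related Ier3 (2799.9) and Nfkbia (3792), each lowest in B-like cells (69.6, 31.2 and 257). Fibroblast-like cells led for Ier2 (1867 CPM), Zfp36 (2524), the growth regulator Myc (273) and Cebpd (2297), a bZIP factor of the acute phase response. Ier2 and Cebpd were lowest in B-like cells (304 and 34.8), Zfp36 in NK-like cells (138) and Myc in dendritic-like cells (10.5). Smooth muscle-like cells led for Btg2 (2343 CPM), an antiproliferative gene, Cebpb (2058) and Ppp1r15a (1230), which restores translation after stress. Their lowest classes were mast-like (136), dendritic-like (109) and B-like (105) cells. Macrophage-like cells led for Ier5 (859 CPM) and the survival factor Mcl1 (1487), and were about level with blood endothelial-like cells (662 CPM) for the small GTPase Rhob (679.8 CPM). The lowest levels of Ier5, Mcl1 and Rhob were in mast-like (129.97), mesothelial-like (248) and dendritic-like cells (27.2). Gadd45b, a stress sensor of p38 signalling, was about level in ILC2-like (1704 CPM) and smooth muscle-like cells (1630) and lowest in B-like cells (63.6). Socs3 was highest in lymphatic endothelial-like (1417 CPM) and Schwann-like cells (1114) and lowest in ILC2-like cells (30.7).

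Each class was then set against the mean CPM of the other 13 classes, and a member was counted as higher or lower where it was at least 2-fold apart and at 10 CPM or more on either side. In mesothelial-like cells 14 of 36 members were higher (14.2% of all genes were) and 6 lower (26.3%), and the median log2 fold was 0.77 over the members and -0.20 over all genes. The furthest up were Ier3 (2799.9 against 687 CPM, 4.07-fold), Fosl1 (33.1 against 8.53, 3.88-fold) and Dusp1 (3593 against 931, 3.86-fold). The furthest down were Nr4a2 (50.5 against 319, 6.32-fold), Nr4a3 (53.7 against 259, 4.82-fold) and Egr3 (34.9 against 166, 4.77-fold). Nr4a2 was low in every mesothelial-like suffix, from 30.4 to 100.2 CPM. In fibroblast-like cells 8 members were higher (10.8% of genes) and 3 lower (25.2%); with the other classes summed, 3 were higher. Cebpd was 5.02-fold over the others with little spread between suffixes (2170, 2221 and 2632 CPM), Myc 3.57-fold (220, 260 and 321) and Socs3 2.56-fold (887, 1037 and 1235). The 3 lower members were again Nr4a2 (6.60-fold), Nr4a3 (3.08-fold) and Egr3 (2.78-fold). All the comparisons with other classes share those classes, so they are not independent of each other.

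In smooth muscle-like cells 8 members were higher (12.7% of genes) and 4 lower (25.9%). Hspa1a stood 3.85-fold over the others (suffixes 278, 582 and 792 CPM), Gadd45b 3.73-fold (1350, 1642 and 1969) and Cebpb 3.72-fold (1609, 2166 and 2669), and Nr4a2, Btg2, Nr4a1, Hspa1b and Ppp1r15a completed the list. Ier3 (2.47-fold), Klf2 (2.42-fold) and Egr3 (2.41-fold) were furthest down. In lymphatic endothelial-like cells 6 members were higher (10.9% of genes) and 8 lower (23.4%). Klf2 was 6.09-fold over the other classes, Socs3 3.81-fold (suffixes 996, 1341 and 2249 CPM) and Cebpd 3.11-fold (1291, 1612 and 1695). Nr4a3 was 11.5-fold under them (11.8, 21.4 and 39.9 CPM), Egr2 10.2-fold (2.97, 6.47 and 17.8) and Fosl1 7.62-fold (1.44 against 10.96 CPM, 12 UMIs). Lymphatic endothelial-like cells, taken as 1 class, thus paired the highest Klf2 level of any class with some of the lowest Nr4a3 and Egr2 levels. The 67 capillary cells of the class, described below, did not show this pairing. They held Klf2 at 4889 CPM with Nr4a3 at 93.7 and Egr2 at 37.5 CPM, where the medians over the 14 classes were 97.0 and 28.4 CPM. With the other classes summed instead of averaged, only 3 members counted as higher there. In blood endothelial-like cells 6 members were higher (11.5% of genes), led by Klf2 (3.18-fold), Ier3 (2.98-fold) and Rhob (2.46-fold), and 3 were lower (21.3%), namely Nr4a3 (2.92-fold), Cebpb (2.89-fold) and Fosl1 (2.27-fold). Under another scaling or with classes taken from clusters the 6 became 3.

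In macrophage-like cells 7 members were higher (13.1% of genes) and 6 lower (28.5%); with the other classes summed, 4 were higher. Egr2 stood 3.46-fold over the other classes (suffixes 186, 224 and 322 CPM), Mcl1 3.19-fold (1304, 1492 and 1665) and Dusp1 3.04-fold (2090, 2826 and 3982). Nr4a2 was 6.69-fold under them, Myc 4.68-fold and Cebpd 2.65-fold. Dendritic-like cells had 2 members higher, Mcl1 (2.12-fold) and Nr4a3 (2.06-fold), against 8.77% of genes, and 15 lower (33.4%), led by Rhob (11.7-fold), Cebpd (9.78-fold) and Myc (9.17-fold). Mast-like cells had 8 higher (9.84%), led by Egr3 (7.77-fold), Dnajb1 (3.46-fold) and Nr4a3 (3.33-fold), and 11 lower (36.4%), led by Btg2 (7.34-fold), Socs3 (5.604-fold) and Hspa1a (5.48-fold). The 11 include Fosl1, which had no UMI; 3 counts would be 9.07 CPM and the 95% interval reaches 11.15 CPM, so that no 2-fold difference from the 11.1 CPM of the others is shown. Schwann-like cells had 6 higher (20.9%), led by Egr2 (6.06-fold), Nr4a2 (2.86-fold) and Socs3 (2.82-fold), and 10 lower (23.2%), led by Cebpb (3.55-fold), Fosl1 (3.53-fold on 1 UMI, 3.07 CPM with an interval of 0.0777 to 17.1) and Myc (3.10-fold).

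B-like, T-like and NK-like cells were low for most members. In B-like cells 29 of 36 were lower (32.1% of genes), led by Ier3 (28.9-fold), Jun (19.4-fold) and Cebpd (18.1-fold), and only Myc was higher (2.47-fold; suffixes 166, 219.6 and 274 CPM; 9.42%). In T-like cells 29 were lower (29.5%), led by Egr3 (27.7-fold), Atf3 (16.7-fold) and Ier3 (16.7-fold), and none was higher (10.9%). In NK-like cells 25 were lower (31.3%), led by Ier3 (18.7-fold), Egr3 (17.5-fold on 3 UMIs, 9.61 CPM with an interval of 1.98 to 28.1) and Klf4 (16.8-fold), and Nr4a2 was higher (2.07-fold; 13.9%). Those 25 include Fosl1 with no UMI, again too few counts for a fold. The median log2 fold of the members was -2.66 in B-like, -2.05 in T-like and -2.05 in NK-like cells, against -0.19, -0.11 and -0.13 over all genes. ILC2-like cells had 18 lower (35.8%), led by Hspa1a (16.6-fold), Socs3 (15.6-fold) and Klf2 (13.7-fold), yet Nr4a3 (3.96-fold), Gadd45b (3.95-fold) and Fosl1 (2.75-fold) were higher (7.40%). Nr4a3 was high in all 8 ILC2-like suffixes (627, 839 and 1009 CPM). Epithelial-like cells, found in suffixes 1 to 4 only, had 16 lower (25.2%), led by Nr4a2 (19.5-fold), Nr4a3 (19.1-fold) and Klf2 (12.7-fold), and only Fosl1 higher (4.06-fold; 15.2%).

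Smooth muscle-like and lymphatic endothelial-like cells (here the muscle and the endothelium) were compared directly. The smooth muscle gate does not separate lymphatic muscle from that of blood vessels, so these classes need not come from the same vessels. Of 35 members tested, 12 were at least 2-fold higher in smooth muscle-like cells (18.3% of all genes) and 4 higher in lymphatic endothelial-like cells (17.9%), and the order of all 16 was the same in 8 of 8 suffixes. Hspa1a reached 278, 582 and 792 CPM (lowest, median and highest suffix) in the muscle and 7.27, 25.2 and 44.0 CPM in the endothelium, so the ranges do not overlap. The ratio of pooled levels was 21.3 (95% interval 18.7 to 24.3). Nr4a3 differed 16.5-fold (14.2 to 19.2; 299, 359.7 and 501 CPM against 11.8, 21.4 and 39.9), Egr2 10.1-fold (7.96 to 13.0) and Gadd45b 9.75-fold (9.24 to 10.3). All 3 Nr4a members, Egr1, Egr2 and 3 of the 4 heat shock genes were among the 12. Klf2 went the other way, with 383, 479 and 902 CPM in the muscle and 4342, 5433 and 7534 CPM in the endothelium, a ratio of 10.4 (10.1 to 10.6). Ier3 was 5.65-fold, Klf4 3.15-fold and Socs3 2.73-fold higher in lymphatic endothelial-like cells. The Ier3 and Socs3 levels of that class were those of its collecting cells (2217 and 1569 CPM in 470 cells). In its 67 capillary cells, described below, they were 269 and 168 CPM. The muscle was not compared with capillary cells alone, so these ratios cannot be carried over to them. Fibroblast markers summed to 202 CPM in the former class and 73.3 CPM in the latter, and the part of free RNA in these ratios was not tested.

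**Figure D3:**
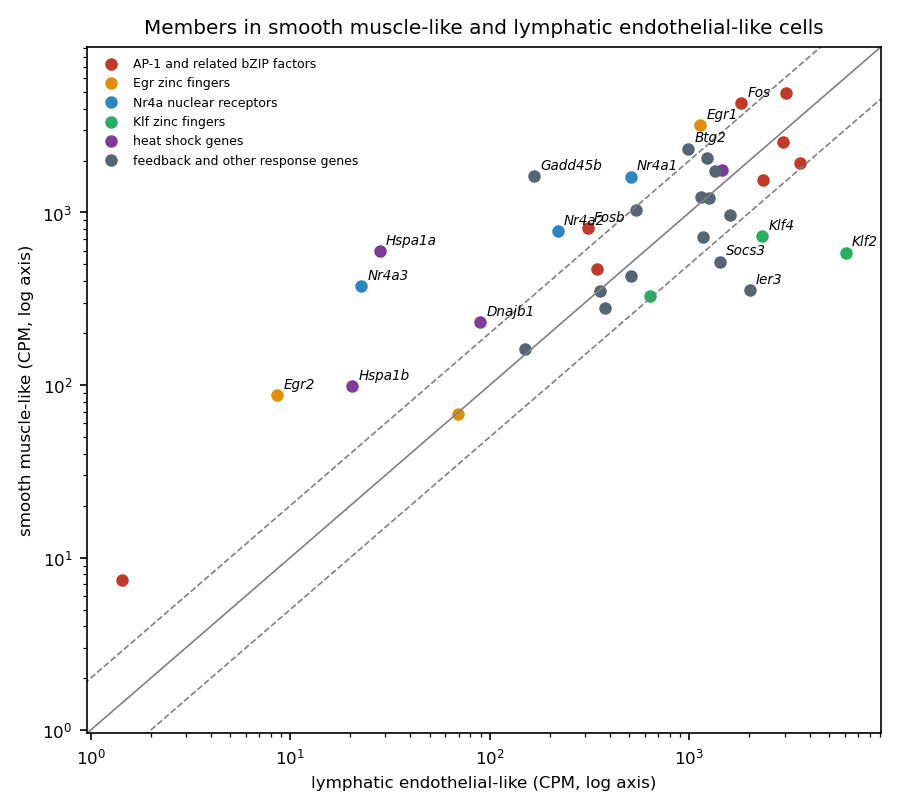
Level of each member in smooth muscle-like cells (vertical) against lymphatic endothelial-like cells (horizontal), in CPM on log axes, coloured by group. The solid line is equality and the dashed lines are 2-fold, and the members at least 2-fold apart are named, except Fosl1, which is under 10 CPM in both: Hspa1a, Nr4a3, Egr2 and Gadd45b lie far above and Klf2 and Ier3 far below.

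Both kinds of endothelium shared high Klf2 but differed elsewhere. High Klf levels were not particular to endothelium. The summed Klf group stood at 7084 CPM in mesothelial-like cells, against 6508 CPM in blood endothelial-like cells. Lymphatic over blood endothelial-like cells, 2 of 35 members were higher (9.38% of genes) and 8 lower (12.9%). Cebpb reached 1085, 1224 and 1509 CPM in lymphatic and 157, 179.6 and 334 CPM in blood endothelial-like suffixes, a ratio of 5.12 (4.66 to 5.63), and Socs3 a ratio of 3.22 (3.00 to 3.45), both higher in 7 of 7 suffixes compared. Hspa1a was 8.77-fold lower in lymphatic cells (7.48 to 10.3). In blood endothelial-like cells Hspa1a varied from 24.9 to 522 CPM between suffixes, and in 1 of 7 suffixes the order was the other way. Egr2 was 5.46-fold lower (3.96 to 7.55) and Egr3 4.06-fold lower (3.60 to 4.57), in 7 of 7 suffixes. Nr4a3, Nfkbia, Ier2, Hspa1b and Fosb made up the rest. Mural markers summed to 760 CPM in blood against 99.9 CPM in lymphatic endothelium, and their part in this was not tested.

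Within lymphatic endothelium, 470 cells were gated as collecting and 67 as capillary, the latter by UMIs of both Lyve1 and Ccl21a. Collecting over capillary cells, 5 of 35 members were higher (7.41% of genes) and 12 lower (8.34%). Socs3 stood at 1569 against 168 CPM, 9.36-fold higher in collecting cells (7.98 to 11.1), Ier3 at 2217 against 269 CPM, 8.24-fold (7.26 to 9.39), and Cebpb 2.37-fold. In capillary cells Egr2 was 7.34-fold higher (34 UMIs), Nr4a3 6.70-fold (93.7 against 14.0 CPM) and Egr3 5.30-fold (249 against 47.1). Fos (4903 against 1444 CPM), Klf6, Egr1, Nr4a1 and Dusp1 were also higher there. Klf2 differed less than 2-fold. Suffix 8 held 26 of the 67 capillary cells and was the only one with at least 20 of them. Without it, 41 capillary cells were left, Nr4a3 was 3.41-fold higher in capillary cells in place of 6.70-fold, and Socs3 8.42-fold and Ier3 7.43-fold higher in collecting cells. Dusp1 (1.84), Fosb (1.74), Btg2 (1.65) and Ier2 (1.51) were then under 2-fold, as was Hspa1a in the other direction (1.85).

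Macrophage-like over dendritic-like cells, 16 of 36 members were higher (21.8% of genes) and 3 lower (12.8%), and the median log2 fold was 0.90 over the members and 0.11 over all genes. Rhob stood at 502, 652 and 832 CPM in macrophage-like and 10.1, 29.1 and 34.3 CPM in dendritic-like suffixes, a ratio of 25.02 (21.3 to 29.6). Ier3 was 10.9-fold (10.1 to 11.8), Cebpb 9.17-fold (8.45 to 9.96) and Egr1 8.77-fold higher (8.38 to 9.18). All 16 kept this order in 8 of 8 suffixes. Nr4a2 was 9.60-fold lower in macrophage-like cells (9.07 to 10.2; 35.0, 50.9 and 57.4 CPM against 334, 439 and 646) and Nr4a3 4.41-fold lower, in 8 of 8 suffixes. Fosl1 was 2.43-fold lower (1.77 to 3.29) on 55 dendritic-like UMIs, in 6 of 8 suffixes.

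Genes of related lists that are not members were counted by the same rule. Of 25 other primary response genes, 24 were tested. In smooth muscle-like against lymphatic endothelial-like cells, 6 were higher (18.3% of all genes) and 6 lower (17.9%). The furthest apart were Dusp2, a nuclear MAP kinase phosphatase, at 8.77 against 1288 CPM (147-fold lower, 121 to 180), and Arc at 17.5 CPM against 0.240 CPM (2 UMIs; ratio 73.2, counting interval up to 608). Set against the same shares, none of 10 other chaperones was higher and 1 was lower, whereas 3 of the 4 heat shock members were higher. Of 10 upstream transcription factors, 3 were higher and 2 lower, again with those shares over all genes. The ETS factor Elk3 was 38.8-fold lower (32.2 to 47.2). In macrophage-like against dendritic-like cells, 9 of 21 other primary response genes were higher (21.8% of all genes) and 3 lower (12.8%). Dusp6 was 24.5-fold higher (16.8 to 37.2) and Dusp5 10.96-fold lower (10.2 to 11.8). In B-like cells 17 of 22 tested were lower than in the other classes (32.1% of all genes) and none higher (9.42%). Of the upstream factors 2 of 9 were lower there.

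Spread between cells was measured at matched depth. UMIs were drawn at random until 2000 were left in each cell, shallower cells were left out, and the excess coefficient of variation (CV), that is the CV left after the Poisson variance of counting is taken off, was computed for genes with a mean of at least 0.1 UMI a cell. A member was counted as widely spread at an excess CV of 1 or more. In lymphatic endothelial-like cells 12 of 31 members met this, against 16.8% of all genes. In smooth muscle-like cells 15 of 35 did (20.8%), in fibroblast-like cells 14 of 34 (22.7%), in blood endothelial-like cells 11 of 34 (27.1%) and in macrophage-like cells 4 of 33 (13.5%). The median excess CV of the members was 0.913, 0.918, 0.905, 0.806 and 0.672 in these classes, and that of all genes 0.570, 0.617, 0.614, 0.657 and 0.629. Macrophage-like cells were thus the class of the 5 in which the members varied most like other genes.

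**Figure D4:**
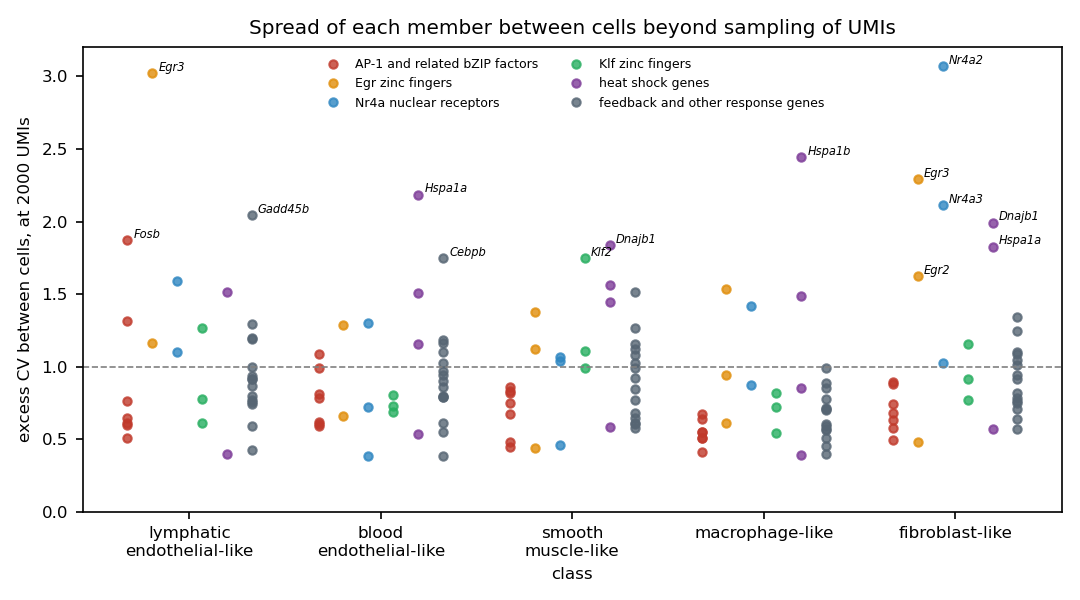
Excess CV between cells at 2000 UMIs for each member with a mean of at least 0.1 UMI, by class and coloured by group. The dashed line marks an excess CV of 1, and members at 1.6 or more are named. Heat shock, Egr and Nr4a members reach highest, while the AP-1 members lie below the line in smooth muscle-like, macrophage-like and fibroblast-like cells.

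In lymphatic endothelial-like cells the widest spread belonged to Egr3 (excess CV 3.02, with a UMI in 9.32% of cells and up to 8 in a cell), Gadd45b (2.04) and Fosb (1.87). Fos also varied widely there, with an excess CV of 1.31: 66.2% of cells had a UMI, and the top 10% of cells had 10 or more. In fibroblast-like cells Fos had a UMI in 98.6% of cells and an excess CV of 0.496, among the 3 narrowest. Blood endothelial-like cells varied most in Hspa1a (2.19), Cebpb (1.75) and Dnajb1 (1.51). Smooth muscle-like cells varied most in Dnajb1 (1.84), Klf2 (1.75, up to 19 UMIs in a cell) and Hspa1b (1.56), whereas Nr4a1 (0.462), Fosl2 (0.446) and Egr1 (0.439) were the most even. Macrophage-like cells varied most in Hspa1b (2.45), Egr3 (1.54) and Hspa1a (1.49), and fibroblast-like cells in Nr4a2 (3.07), Egr3 (2.30) and Nr4a3 (2.11). Values for Nr4a2 in fibroblast-like and Egr3 in lymphatic endothelial-like cells rest on means of 0.100 and 0.133 UMI a cell. The value for Nr4a3 in blood endothelial-like cells, given below, also rests on few UMIs, since its level was low there and 238 cells were used. Hspa8 was among the 3 most even in lymphatic endothelial-like (0.398), blood endothelial-like (0.535), macrophage-like (0.390) and fibroblast-like cells (0.567). Mcl1 was the most even or next to it in lymphatic (0.426) and blood endothelial-like (0.381) and macrophage-like cells (0.395), with Junb (0.505) the third in the first of these and also in macrophage-like cells (0.414), Nr4a3 (0.384) in blood endothelial-like cells and Egr1 (0.480) in fibroblast-like cells. Taking the variance within suffixes changed these values little (Egr3 3.01, Gadd45b 2.02 and Fosb 1.85 in lymphatic endothelial-like cells).

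Member UMIs were found in every cell of these classes at this depth. No cell of the 5 classes had 0 member UMIs among its 2000. The number per cell ran from 7 to 233 in lymphatic endothelial-like cells (10th percentile 41, median 73, 90th percentile 116) and from 3 to 300 in fibroblast-like cells (52, 97 and 152). Of these 5 classes, macrophage-like cells had the tightest distribution (52, 83 and 119, excess CV 0.305), ahead of smooth muscle-like (0.332), fibroblast-like (0.381), blood endothelial-like (0.418) and lymphatic endothelial-like cells (0.383). Outside the 5, the 66 NK-like cells were tighter (0.270). Between suffixes lay 1.81% to 14.8% of the excess variance in the 5 classes, lowest in fibroblast-like and highest in blood endothelial-like cells. In B-like cells the median was 16 UMIs, with 9 at the 10th and 29 at the 90th percentile. Of lymphatic endothelial-like cells, 37.5% had no Egr UMI and 43.7% no Nr4a UMI. In smooth muscle-like cells these shares were 2.79% and 4.08%, while 16.7% had no Klf UMI, against 0.380% in lymphatic endothelial-like cells. No class can be taken to lack the members, so no share of free RNA can be read from one. The lowest share of cells with a Fos UMI at this depth was 26.8%, in B-like cells. That bounds the share of B-like cells with a stray Fos UMI, but not the share of their UMIs that is free RNA.

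The groups were high in the same cells only in part. Across cells of 1 class at 2000 UMIs, Pearson's r is given as a description, since the cells share libraries and a fixed total of UMIs. The AP-1 and feedback groups went together in all 5 classes, with r of 0.58 in 8346 fibroblast-like, 0.57 in 6166 macrophage-like, 0.42 in 238 blood endothelial-like, 0.40 in 526 lymphatic endothelial-like and 0.34 in 1398 smooth muscle-like cells. AP-1 with Egr gave 0.35 to 0.49. The Nr4a group went with AP-1 at 0.31 in lymphatic endothelial-like cells and at 0.06 in smooth muscle-like and 0.05 in macrophage-like cells, where almost none was seen. AP-1 with Klf was highest in blood endothelial-like (0.57) and macrophage-like cells (0.43). Heat shock genes went with AP-1 at 0.42 in blood endothelial-like cells and at 0.17 to 0.24 elsewhere, and with Nr4a at -0.02 to 0.09. At 4000 UMIs a cell the AP-1 and feedback values were 0.61, 0.62, 0.36, 0.42 and 0.38 in the same order of classes. At that depth AP-1 with heat shock was 0.28 in lymphatic endothelial-like cells, and AP-1 with Nr4a was 0.38 in blood endothelial-like (0.25 at 2000 UMIs), 0.04 in smooth muscle-like and 0.03 in macrophage-like cells.

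**Figure D5:**
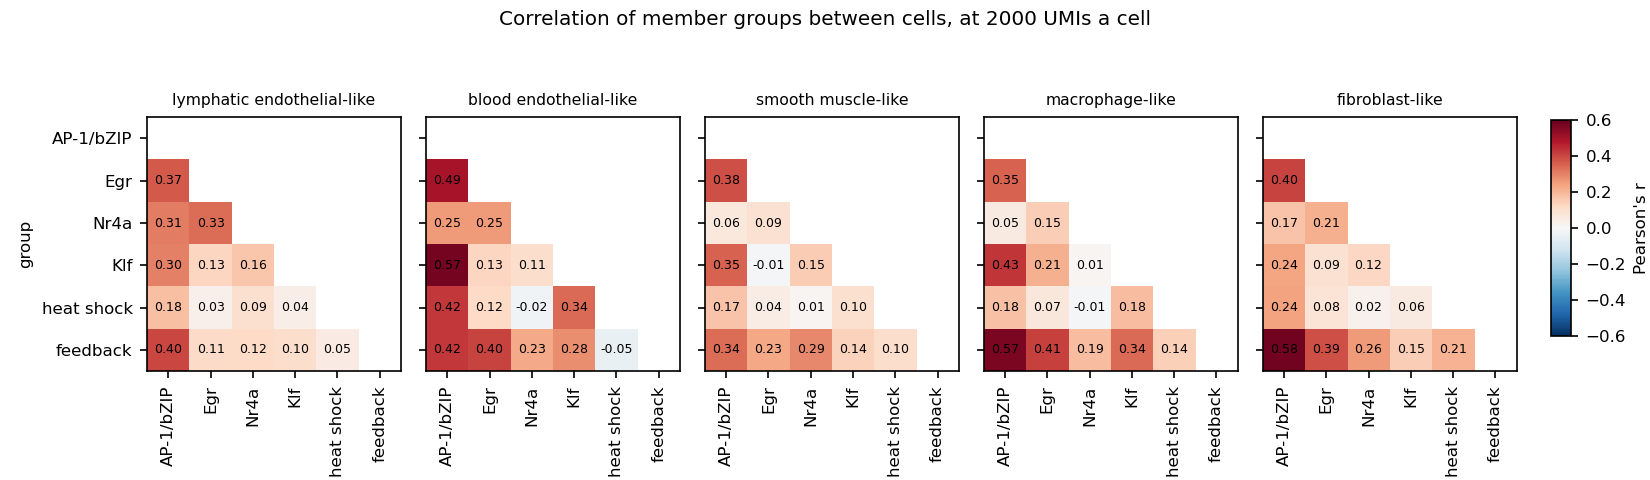
Pearson's r between the summed UMIs of the member groups across cells thinned to 2000 UMIs, a panel for each class. The AP-1 column is red throughout for the Egr, Klf and feedback groups, and the Nr4a with heat shock square is near 0 in each panel.

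Among single genes, Fos went with Dusp1 (r 0.56 in blood endothelial-like, 0.45 in lymphatic endothelial-like and 0.40 in macrophage-like cells), with Fosb (0.47 in lymphatic endothelial-like cells) and with Jun (0.46 in fibroblast-like and 0.45 in smooth muscle-like cells), and Jun with Atf3 (0.47 in smooth muscle-like cells). In blood endothelial-like cells Junb went with Ier2 (0.51) and Dusp1 (0.48), Fos with Klf4 (0.47) and Jund with Klf2 (0.47). Other pairs held no AP-1 member: Ier3 with Nfkbia in blood endothelial-like cells (0.56), Socs3 with Cebpd in fibroblast-like cells (0.47), Gadd45b with Cebpb (0.43) and Hspa1a with Dnajb1 (0.39) in smooth muscle-like cells. The lowest values were -0.29 for Hspa8 with Nfkbia and -0.27 for Fosb with Ier3, both in blood endothelial-like cells. These pairs were taken from the extremes of all pairs of members in each class.

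Clusters built without any member or list gene showed how far the level varied inside a class. The 7 fibroblast-like clusters of at least 50 gated cells ran from 35140 CPM (cluster 16, 580 cells) to 64977 CPM (cluster 7, 1243 cells, above the mesothelial-like level). Cluster 7 held more Klf2 (2444 CPM) and Socs3 (1726) than cluster 16 (921 and 420). Cluster 7 held 52 to 355 cells of each suffix and cluster 16 held 1 to 177; median depth was 9924 and 13972 UMIs and the mitochondrial share 1.27% and 0.90%, and the part of these was not tested. The 5 macrophage-like clusters ran from 31176 to 43498 CPM. Smooth muscle-like cluster 17 (378 cells) held 4044 CPM of Nr4a members and 1313 CPM of Klf2, against 2341 and 330 CPM in cluster 22 (949 cells), which held more Hspa1a (716 against 299 CPM). Mitochondrial genes made up a median of 4.89% of UMIs in cluster 17 and 2.53% in cluster 22, and the part of this in the difference was not tested. Blood endothelial-like cells fell into cluster 9 (192 cells) with 405 CPM of Hspa1a and cluster 14 (80 cells) with 45 CPM, whose summed levels were 43003 and 43445 CPM. Median depth was 3882.5 UMIs in the former and 9970 in the latter, again not tested.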

How the data were processed

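The deposited matrix holds whole UMI counts per gene and cell barcode, which the authors pooled over all libraries. Alignment build mm10 and the tools Seurat 4.3.0.1 and Cell Ranger 7.1.0 are listed per the submitters' processing notes; what Seurat was used for, the annotation counted on, the filters and how samples were demultiplexed are not given in the sources used here. Of the 24046 barcodes, those with at least 500 UMIs, 300 genes and under 15% mitochondrial UMIs were kept (380 removed). Doublets were then scored with Scrublet in scanpy (2 simulated per cell, 6% expected), and 719 cells (3.04%) were removed. A cell joined a lineage with at least 3 of its 6 markers and 2 more than any other lineage; endothelial, mural and lymphatic cells were divided by further markers; 2884 cells (12.6%) stayed ungated. Classes under 50 cells were not described, and a suffix was given where it held at least 20 cells of a class.

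UMIs were summed per class and given as CPM with exact Poisson 95% intervals, and ratios with exact conditional binomial intervals, both for counting error only. PCR duplicates are removed by the UMIs, but UMIs of 1 cell are not independent of each other. Clusters (2000 variable genes, 30 components, 15 neighbours, resolution 1) were built with scanpy 1.11.5 without the members and the related lists. Python 3.11.15, numpy 2.4.6 and scipy 1.17.1 were used, and the fold and spread calls were tested on simulated data. All 36 members are named; in each class and pair, those furthest in either direction are given in full. The members and lists were chosen with earlier results of these data known. The matrix was treated as 1 pooled sample and no test was made. Alternatives were a stricter gate, classes from clusters, no doublet removal, a stricter cell filter, another scaling, no minimum level, other classes summed, other thinning depths, variance within suffixes and each suffix left out.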

Additional observations from a re-analysis of the deposited data

Results flagged for a closer look

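The summed level of the 36 members in blood endothelial-like cells was 28413.1 CPM in 1 of 7 suffixes, further from the nearest of the others than the range of the group allows by Dixon's criterion. That suffix, number 4, held 32 of the cells, with a median of 4869 UMIs and 4.34% mitochondrial UMIs. Without it the other 240 cells gave 45329 CPM (95% Poisson interval 45007 to 45653), against 43197 CPM with it. Of 12 classes examined this way 1 had such a suffix, and chance marks about 5% of groups.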

How the results depend on the processing

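With the other classes summed instead of averaged, 3 members were higher in lymphatic endothelial-like cells (6 otherwise), 4 in macrophage-like (7) and 3 in fibroblast-like cells (8). In blood endothelial-like cells 3 were higher (6 otherwise) with classes from clusters and 3 with median-of-ratios scaling, and 1 was lower (3 otherwise) with classes from clusters. The share of all genes called under these alternatives is not given, here or above. The changed counts therefore cannot be read as particular to the members. Summed levels moved beyond counting error, though little, under the stricter gate (lymphatic endothelial-like 41008.2, smooth muscle-like 42603.4, macrophage-like 41343.2 and fibroblast-like 48729.8 CPM) and with classes from clusters (blood endothelial-like 39202.7, smooth muscle-like 43395.4, macrophage-like 40175.9 and fibroblast-like 49195.5 CPM). The cause was not tested. Of the main counts and levels, 331 recomputed values stayed within these bounds, 14 moved and none reversed. Of the recomputed values outside these main ones, 134 stayed and 51 moved. Leaving out each suffix kept every count within 1.5 times: members higher in smooth muscle-like than in lymphatic endothelial-like cells were 12 to 13, and those higher in macrophage-like than in dendritic-like cells 16 to 19. No count was made for collecting against capillary cells without suffix 8, which leaves 41 capillary cells. No paired analysis was possible because the labelled groups could not be matched to suffixes; classes were compared within suffixes only by their order. Smooth muscle-like and pericyte cells were not compared, since only 13 cells passed the pericyte gate. Depth limits Fosl1, Egr2, Egr3 and Hspa1b most, with fewer than 10 UMIs in some classes.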

Other observations

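The summed member level differed between the 2 sets of suffixes in some classes. In macrophage-like cells it was 38886, 36287, 35211 and 36293 CPM in suffixes 1 to 4 and 41856, 44906, 47388 and 40541 CPM in suffixes 5 to 8. In lymphatic endothelial-like cells the values were 39888, 35209.5, 37026 and 34333 CPM in the former set and 42878, 41788, 44532 and 46045 CPM in the latter. In smooth muscle-like cells they were 41671, 37988, 34883 and 33924 CPM against 45540.0, 42845, 45273 and 50014 CPM. The sets did not overlap in these 3 classes. They did overlap in fibroblast-like cells, with 49225, 53630.0, 45644 and 48045 CPM against 50366, 48143, 45520.5 and 49505 CPM. Mesothelial-like cells varied most, with 44589.7, 65721, 58239 and 65815 CPM against 36051, 69484, 69299 and 57576 CPM, so that suffixes 1 and 5 were the lowest of their sets. The labels give 1 gene expression library for each sex but do not say which library a set of suffixes came from. If each set is 1 library, sex and capture well cannot be told apart between the sets. The difference was not tested.

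Across the cells of a class, Spearman's rho between a cell's summed member CPM and its UMI total was -0.47 in 269 B-like and -0.36 in 230 T-like cells, -0.08 in 1456 smooth muscle-like cells, 0.19 in 537 lymphatic endothelial-like, 0.27 in 89 Schwann-like and 0.40 in 67 capillary lymphatic cells. With the mitochondrial share it was -0.39 in 272 blood endothelial-like cells. These are descriptions over cells that share libraries.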
